A study of Mus musculus with 6 samples.

Results

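Inhibitory receptors of the immunoglobulin type were followed through RNA from mouse natural killer (NK) cells exposed to oleic acid (OA), a monounsaturated fatty acid. The receptor genes are Cd96, Pvrig, Lair1, Lilrb4a and Cd300a, chosen by symbol; all 5 were among the 559 genes listed in the deposited table. The cells were splenic NK cells purified from C57BL/6 mice. The OA group was kept for 36 h with 0.2 mM OA and the control group for the same time without it, with 3 libraries in each group. The groups share genotype, tissue and cell type, and the age and number of the animals, any pooling and the purification method are not stated in the sources used. Per the labels, the treatment was carried out once, so the spread between libraries, and every p-value that rests on it, may be technical.

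Inhibitory receptors of this type carry immunoglobulin domains outside the cell and tyrosine motifs inside it, known as ITIMs or ITIM-like motifs. When ligand binds, the motifs are phosphorylated and recruit phosphatases, which dampen the kinase signals of activating receptors. On NK cells such receptors raise the threshold for killing and cytokine release, and several are studied as targets of cancer immunotherapy. CD96 and PVRIG bind nectin-family proteins on other cells and compete there with the activating receptor CD226. LAIR1 binds collagen. LILRB4A, the mouse protein formerly called gp49B, is found on NK cells, mast cells and myeloid cells. CD300a binds phospholipids exposed on dying cells and is found mainly on myeloid cells and mast cells in mice.

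Levels are in TPM, which scales each transcript to its length and to the library total, so levels can be set side by side between genes. The table lists only genes that passed the authors' own test on these libraries, so each of the 5 genes had already been selected on the OA contrast. Tests below therefore describe listed genes and are no independent evidence of a change. Listed genes summed to between 122882 and 126392 TPM in OA libraries and between 121857 and 122992 TPM in control libraries, and the sequencing depth is unknown. The 11 listed NK markers, among them Ncr1 and Klrd1, were above 0 in every library and summed to between 3152 and 4023 TPM in OA, against 4791 to 5718 TPM in control. Markers of other cells were present too: 13 listed monocyte, macrophage and dendritic cell markers summed to between 6282 and 6665 TPM in OA, against 5022 to 5584 TPM in control. Listed heart muscle transcripts reached 6742 TPM in OA replicate 3, against 51.5 and 499 TPM in OA replicates 1 and 2 and 35.2 to 59.5 TPM in control.

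Cd96, Pvrig and Lair1 transcripts were lower in OA, Cd300a was higher, and Lilrb4a did not pass the test. The falls were modest, to between 0.715 and 0.806 of the control mean, and the rise of Cd300a was 1.37-fold. In limma on log2(TPM + 1) over all 559 listed genes, at a Benjamini-Hochberg adjusted p under 0.05, 4 of the 5 genes passed, against 76.0% of listed genes: 3 fell, against 40.1%, and 1 rose, against 36.0%. The OA and control libraries did not overlap for any of the 5, which was also the case for 93.6% of listed genes. The share of receptors that passed is thus near that of the table as a whole. With libraries scaled to equal medians 2 fell, against 14.7% of listed genes, and 1 rose, against 29.0%, Cd96 being lost (adjusted p = 0.0513, limma); with the replicate number as a block limma called 0 receptors and 0 listed genes (3 of the 5 had an unadjusted p under 0.05). In these bulk samples, fewer cells of a type and less RNA per cell cannot be told apart.

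**Figure D1:**
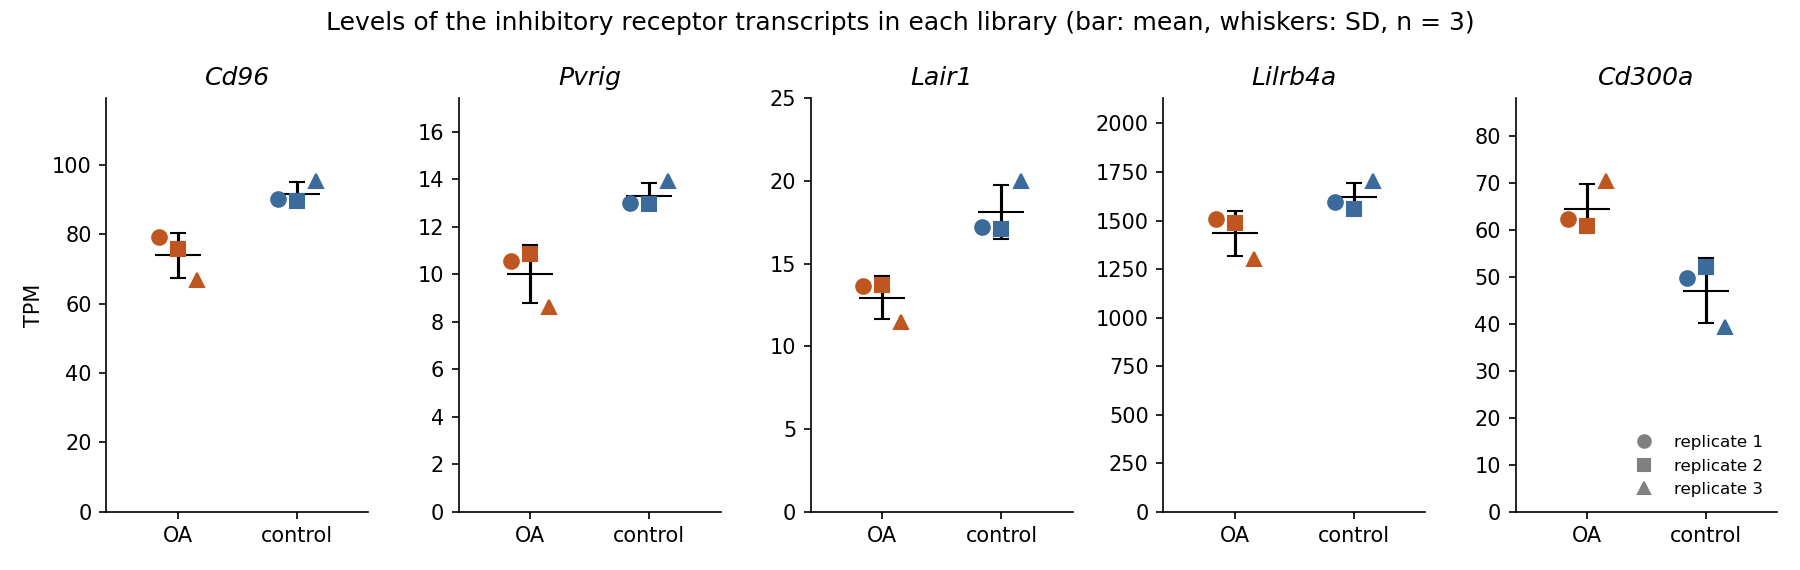
TPM (vertical axes, each from 0) of the 5 receptor genes in the 3 OA and 3 control libraries; the long bar is the mean and the whiskers the SD. OA libraries lie below control libraries for Cd96, Pvrig, Lair1 and Lilrb4a and above them for Cd300a, and replicate 3 is the outermost library on both sides in each panel.

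Cd96 encodes a receptor for CD155, the poliovirus receptor, and in mice restrains NK cell cytokine release. Gene 84544 lies on the minus strand of chr16:46035652-46120248 (GRCm38.p6). Within this span 675 bases overlap the pseudogene Gm50487, and the assignment of reads there was not tested. Cd96 stood at 79.3, 75.6 and 66.7 TPM in OA libraries and at 90.2, 89.4 and 95.4 TPM in control libraries. Every OA library was below every control library, with OA replicate 3 lowest and control replicate 3 highest. The means were 73.9 ± 6.50 TPM in OA and 91.7 ± 3.23 TPM in control (SD, n = 3 each), a log2 fold change of -0.31 (SE 0.0796, 95% interval -0.51 to -0.11, adjusted p = 0.0285, limma). In the authors' deposited table the log2 fold change of Cd96 was -0.30 with a Q value of 0.00298.

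Pvrig encodes a receptor for nectin-2, also known as CD112. Gene 102640920 lies on the plus strand of chr5:138341931-138348691, and its last 1381 bases overlap the pseudogene Pvrig-ps, so reads there may belong to either. Pvrig was the least abundant of the 5, with 10.55, 10.86 and 8.61 TPM in OA libraries and 13.02, 12.98 and 13.94 TPM in control libraries. The groups did not overlap, and replicate 3 was again lowest in OA and highest in control. Pvrig averaged 10.01 ± 1.22 TPM in OA and 13.3 ± 0.543 TPM in control (SD, n = 3 each), with a log2 fold change of -0.38 (SE 0.0960, adjusted p = 0.0282, limma). In the authors' deposited table the log2 fold change of Pvrig was -0.47 with a Q value of 0.0122.

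Lair1 encodes the collagen receptor and showed the largest fall of the 5. Gene 52855 lies on the minus strand of chr7:4007073-4073567, in the leukocyte receptor complex. Lair1 stood at 13.66, 13.74 and 11.45 TPM in OA libraries and at 17.22, 17.10 and 20.01 TPM in control libraries. No OA library reached the lowest control library, and OA replicates 1 and 2 were nearly equal. Lair1 averaged 12.95 ± 1.2997 TPM in OA and 18.1 ± 1.65 TPM in control (SD, n = 3 each), with a log2 fold change of -0.45 (SE 0.101, 95% interval -0.71 to -0.20, adjusted p = 0.026, limma). In the authors' deposited table the log2 fold change of Lair1 was -0.48 with a Q value of 0.0043.

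Lilrb4a was by far the most abundant of the 5, ranking 11 among the 559 listed genes by mean level. It stood at 1510.3, 1489 and 1303 TPM in OA libraries and at 1593, 1561 and 1705 TPM in control libraries. OA libraries were below control libraries, but the gap between the nearest libraries, OA replicate 1 and control replicate 2, was smaller than the range within either group. Lilrb4a averaged 1434 ± 114 TPM in OA and 1619.9 ± 75.4 TPM in control (SD, n = 3 each), and the log2 fold change of -0.18 did not pass the test (SE 0.0786, 95% interval -0.38 to 0.02, adjusted p = 0.0799, limma). In the authors' deposited table Lilrb4a had a log2 fold change of -0.16 and a Q value of 0.0499, the largest of all 559 genes, which places it at the edge of their selection. Since Lilrb4a made up between 89.2% and 90.2% of the summed level of the 5 in OA and between 90.1% and 91.0% in control, that sum follows Lilrb4a alone: it came to 1676, 1649.6 and 1460.4 TPM in OA, against 1764, 1733 and 1874 TPM in control.

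Lilrb4a, gene 14728, lies on the plus strand of chr10:51490898-51496613, with a tandem copy, Lilr4b, 4.57 kb upstream at chr10:51480612-51486329. Lilr4b, the former gp49A, lacks the inhibitory motifs. The first 90 coding bases of both genes, from the GENCODE M21 transcripts on GRCm38, are shown because the copies are nearly identical there. Capitals mark the 2 bases that differ, and every 75-base window inside this stretch spans a capital.
Lilrb4a: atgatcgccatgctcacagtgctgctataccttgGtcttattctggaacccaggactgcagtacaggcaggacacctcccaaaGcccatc
Lilr4b: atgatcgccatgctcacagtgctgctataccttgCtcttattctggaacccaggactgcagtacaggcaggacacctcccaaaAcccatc
Of all 75-base windows in the coding sequence of Lilrb4a, 10.6% occurred unchanged in a transcript of Lilr4b (read length not stated). The deposited levels of the copies moved together. Lilr4b stood at 801, 779 and 671 TPM in OA libraries and at 863, 823 and 888 TPM in control libraries, with a log2 fold change of -0.20 that did not pass (adjusted p = 0.0742, limma). The ratio of Lilrb4a to Lilr4b was 1.91 ± 0.0286 in OA and 1.89 ± 0.0375 in control (SD, n = 3 each) and overlapped between the groups. How reads were divided between the copies was not tested.

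Cd300a, the receptor for exposed phospholipids, was the 1 receptor gene of the 5 that rose. Gene 217303 lies on the plus strand of chr11:114889152-114901946. Cd300a stood at 62.4, 60.8 and 70.5 TPM in OA libraries and at 49.8, 52.2 and 39.3 TPM in control libraries. All OA libraries were above all control libraries, with replicate 3 highest in OA and lowest in control. Cd300a averaged 64.5 ± 5.17 TPM in OA and 47.1 ± 6.89 TPM in control (SD, n = 3 each), with a log2 fold change of 0.45 (SE 0.128, 95% interval 0.13 to 0.78, adjusted p = 0.0318, limma). In the authors' deposited table the log2 fold change of Cd300a was 0.42 with a Q value of 0.00353.

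In OA libraries the order of the levels was Lilrb4a, Cd96, Cd300a, Lair1 and Pvrig. The levels of Cd96 and Cd300a overlapped there, and in OA replicate 3 Cd300a was above Cd96. In control libraries the order was the same but Cd96 was above Cd300a in every library, and the ratio of Cd96 to Cd300a was 1.15 ± 0.180 in OA against 1.98 ± 0.388 in control (SD, n = 3 each). Lair1 was above Pvrig in all 6 libraries, and the ratio of Lair1 to Pvrig was 1.297 ± 0.0324 in OA and 1.36 ± 0.0667 in control (SD, n = 3 each), with overlap. Lair1 and Pvrig thus kept about the same proportion while both fell, and Cd96 and Cd300a did not. The ratio of Pvrig to Cd96 was 0.135 ± 0.00748 in OA and 0.145 ± 0.000951 in control (SD, n = 3 each), without overlap.

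**Figure D2:**
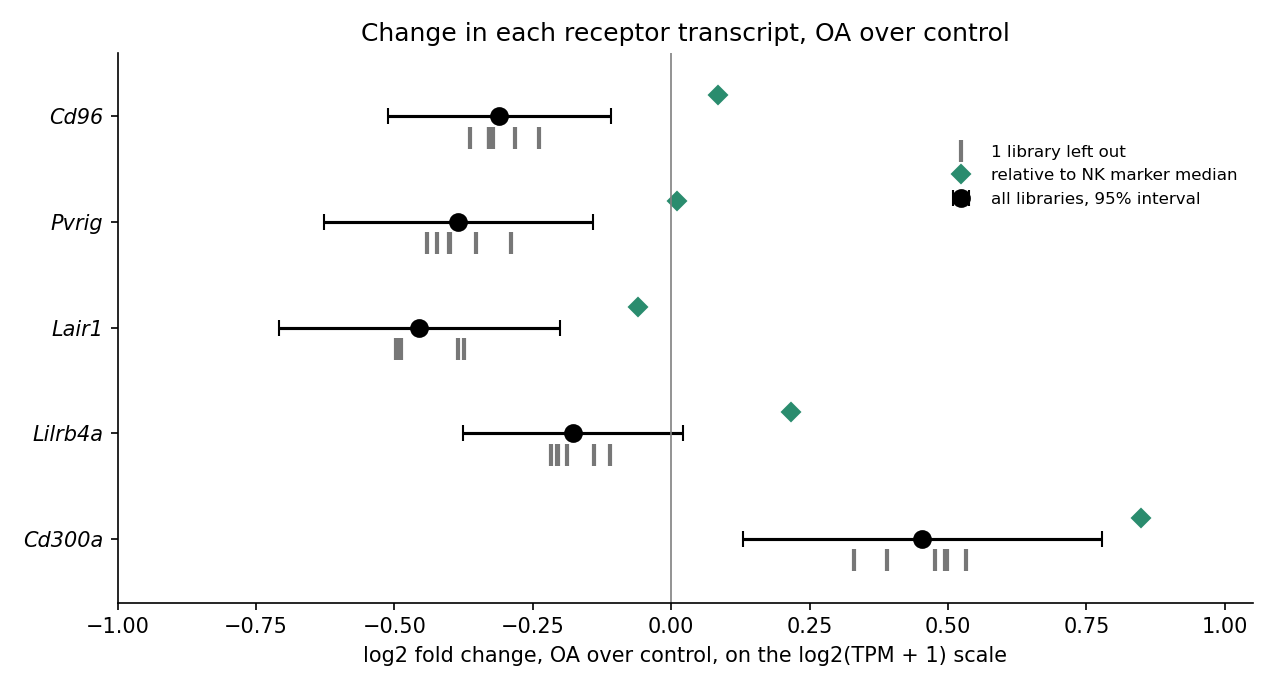
Log2 fold change of OA over control on the log2(TPM + 1) scale for each receptor gene: black points with 95% intervals from limma over all libraries, grey marks with 1 library left out, green diamonds after subtracting the NK marker median of each library. With 1 library left out the values run from -0.50 to -0.38 for Lair1 and from 0.33 to 0.53 for Cd300a; relative to NK markers Cd96, Pvrig and Lair1 lie between -0.060 and 0.084.

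These calls lie near the threshold and depend on single libraries. Without OA replicate 2, or without control replicate 1, 2 or 3, limma called 0 of the 5 genes (4 of 5 had an unadjusted p under 0.05 in each case). The calls over all listed genes dropped too, to 0 without OA replicate 2 or control replicate 1, to 17.9% without control replicate 2 and to 26.7% without control replicate 3. Cd300a was not called without any one of the 6 libraries (adjusted p = 0.0506 to 0.0813, limma). Replicate 3 lay farthest from the other group on both sides for all 5 genes, as it did for 62.6% of listed genes. Without replicate 3 of both groups the log2 fold changes were -0.21 for Cd96, -0.26 for Pvrig, -0.30 for Lair1, -0.07 for Lilrb4a and 0.27 for Cd300a, and the same 4 genes passed (adjusted p = 0.025 to 0.0293, limma). OA replicate 3 is also the library with the most heart muscle transcripts. OA replicate 2 held them too, at 499 TPM, against 35.2 to 59.5 TPM in control. The part of these transcripts in the differences was not tested.

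NK markers fell in the same libraries. Of 17 NK identity genes looked up, 11 were listed, and these had been selected on the OA contrast like every listed gene. All 11, which include the granule gene Nkg7 and the chemokine gene Xcl1, were lower in OA, against 40.1% of listed genes. Their median log2 fold change was -0.41, against -0.31 for the 5 receptors and 0.14 for all listed genes. The scales below use only these selected markers, so they are no independent measure of NK cell RNA. Ncr1, which encodes the activating receptor NKp46, averaged 91.8 ± 12.9 TPM in OA and 131 ± 7.42 TPM in control (SD, n = 3 each). When the median log2 level of the NK markers was subtracted in each library, a shift of 0.39 on the log2 scale between groups, the differences of Pvrig (0.010, adjusted p = 0.89, limma) and Lair1 (-0.060, adjusted p = 0.502, limma) were smaller than their spread, and the groups overlapped for both. The difference of Cd96 became 0.084 (SE 0.0629, adjusted p = 0.288, limma), with all OA libraries slightly above control. The ratio of Cd96 to Ncr1 was 0.809 ± 0.0466 in OA and 0.698 ± 0.0144 in control (SD, n = 3 each), without overlap. That of Cd96 to Klrd1 was 0.750 ± 0.0152 in OA and 0.702 ± 0.0165 in control (SD, n = 3 each), also without overlap. Lilrb4a stood higher in OA on this relative scale by 0.22 without passing (SE 0.0675, adjusted p = 0.0531, limma), and Cd300a by 0.85 (SE 0.212, adjusted p = 0.0262, limma), a scale on which 38.6% of listed genes were called higher. The median was Klrk1, which encodes the activating receptor NKG2D, in all 6 libraries, so this scale rests on that 1 gene, named after its values were seen. With the mean of the 11 markers in its place, a scale chosen after seeing the data, the differences were 0.14 for Cd96, 0.067 for Pvrig and -0.0038 for Lair1, none past the threshold (adjusted p = 0.0972, 0.37 and 0.952, limma). On the mean scale Lilrb4a (0.27, adjusted p = 0.0197, limma) and Cd300a (0.90, adjusted p = 0.0243, limma) were called higher, as were 55.3% of listed genes. Whether fewer NK cells or less of these transcripts per cell lay behind the lower levels of Cd96, Pvrig and Lair1 cannot be told apart.

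Most listed markers of myeloid and B cells rose, as Cd300a did. Of 37 genes marking monocytes, macrophages and dendritic cells, 13 were listed, and the others could not be followed here. Of these 13, 11 rose and 2 fell, with a median log2 fold change of 0.37. Of all listed genes 36.0% rose and 40.1% fell. Cd14, which encodes the lipopolysaccharide co-receptor of monocytes and macrophages, averaged 655 ± 35.8 TPM in OA and 447 ± 61.2 TPM in control (SD, n = 3 each). The ratio of Cd300a to Cd14 was 0.101, 0.0920 and 0.102 in OA libraries and 0.106, 0.105 and 0.104 in control libraries. Cd300a and Cd14 thus kept nearly the same proportion in all 6 libraries, slightly lower in OA. Cd14 was the only marker of this list set in ratio to Cd300a, and the markers changed by unlike amounts. The rises ran from 1.12-fold (Itgam) to 2.90-fold (Arg1), with Mmp12 at 1.29-fold and Il1b at 1.19-fold. The monocyte genes Ly6c2 and Ccr2 fell to 0.656 and 0.839 of the control mean. Of 15 B cell and plasma cell markers, 6 were listed. Of these 6, 5 rose, among them Cd79a, Ly6d, Mzb1 and Spib, and 0 fell. Their summed levels were 503 to 592 TPM in OA, against 323 to 403 TPM in control. The part of these cells in the rise of Cd300a, and in the level of Lilrb4a, was not tested.

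The nearest listed gene on the chromosome had a difference of the same sign for Lilrb4a, Lair1 and Cd300a and of the opposite sign for Cd96 and Pvrig. Cd300a lies in the Cd300 gene cluster, 20.8 kb from Cd300lb and 94.8 kb from Cd300c2, and both of these listed neighbours rose. Cd300lb, whose product is an activating CD300 receptor of myeloid cells, stood at 8.16, 8.26 and 8.10 TPM in OA libraries and at 5.77, 4.90 and 3.71 TPM in control libraries (log2 fold change 0.68, SE 0.139, adjusted p = 0.026, limma). Cd300c2 averaged 48.9 ± 3.12 TPM in OA and 35.5 ± 3.49 TPM in control (SD, n = 3 each), and the ratio of Cd300a to Cd300c2 was 1.32 in both groups. Of all 75-base windows in the coding sequence of Cd300a, 7.47% occurred unchanged in a transcript of Cd300c2, and how reads were divided between these genes was not tested. Cd300lg was at 0.14, 0.59 and 5.15 TPM in OA libraries and at 0.20, 0.24 and 0.27 TPM in control libraries, and did not pass (adjusted p = 0.244, limma). Lair1 lies 264 kb from Ncr1 in the leukocyte receptor complex, and the ratio of Lair1 to Ncr1 was 0.142 ± 0.0104 in OA and 0.138 ± 0.00471 in control (SD, n = 3 each), with overlap. The gap between Cd96 and the nearest listed gene, Nfkbiz, was 9691 kb, and that between Pvrig and Fam20c was 406 kb; Nfkbiz and Fam20c both rose, unlike Cd96 and Pvrig.

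**Figure D3:**
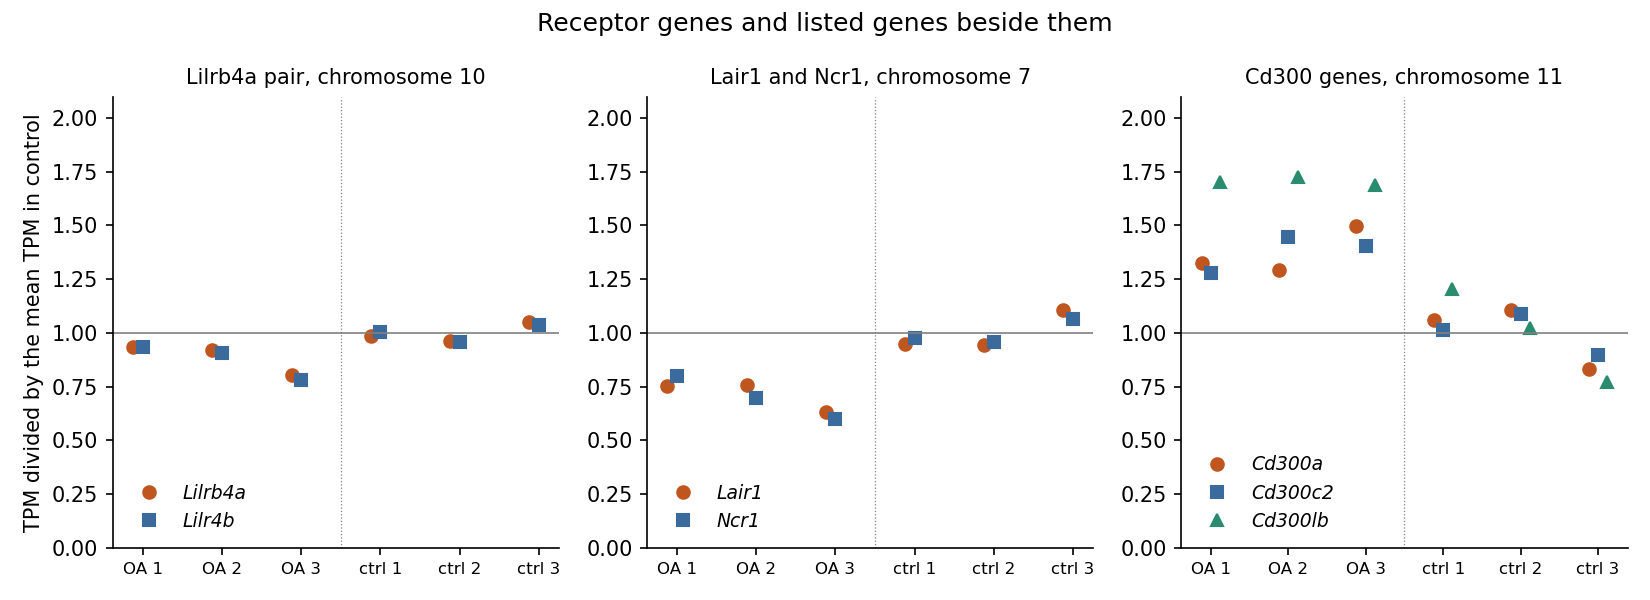
TPM divided by the mean TPM of the control libraries (vertical axis, from 0) for Lilrb4a with Lilr4b, Lair1 with Ncr1, and Cd300a with Cd300c2 and Cd300lb, in each OA and control library. Lilrb4a and Lilr4b nearly coincide in all 6 libraries, and the Cd300 genes are above the control mean in all OA libraries.

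The listed genes with the profile most like that of each receptor, by the root mean square difference of centred log2(TPM + 1) values over the 6 libraries, differed between the receptors. For Cd96 they were Coro2a (0.0125), the chemokine receptor gene Cxcr6 (0.0153) and Sp4 (0.0190). For Pvrig they were Avil (0.0240), Slc2a6 (0.0273) and Nkg7 (0.0310), the last an NK granule membrane protein gene. For Lair1 they included Slamf8 (0.0344) and the NK receptor gene Klrd1 (0.0345). Those nearest to Lilrb4a were Sept1 (0.0196), its copy Lilr4b (0.0227) and Spata13 (0.0232). The nearest to Cd300a included the B cell receptor gene Cd79a (0.0349) and Gja1 (0.0557). Gja1 was farther from Cd300a than any of the 3 nearest genes of the other receptors were from theirs.

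A list of another 37 inhibitory receptor and checkpoint genes was looked up, and 5 were listed: 3 fell, 1 rose, and Lilr4b did not pass. Of all listed genes 40.1% fell and 36.0% rose. The median log2 fold change of the 5 was -0.40, which counts Lilr4b although it lacks the inhibitory motifs. Klrd1 and Klrc1, which encode CD94 and NKG2A, which pair as an inhibitory receptor for a non-classical MHC molecule, fell to 0.754 and 0.761 of the control mean. Cd244a, which encodes the SLAM receptor 2B4, fell to 31.8 ± 5.28 TPM in OA, against 43.8 ± 5.16 TPM in control (SD, n = 3 each). Cd72, an inhibitory receptor gene of B cells, rose to 66.0 ± 3.17 TPM in OA, against 51.0 ± 5.44 TPM in control (SD, n = 3 each).

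Of the 9 CD226 and nectin axis genes besides Cd96 and Pvrig, 0 were listed, so neither the ligands nor the competing receptors Cd226 and Tigit were analysed here. Of 23 ligands and relatives of LAIR1, LILRB4 and CD300, 6 were listed: 3 rose, 0 fell, and 3 missed the threshold. Apoe, which encodes a lipoprotein that binds human LILRB4, rose 1.298-fold, and the collagen gene Col3a1, a LAIR1 ligand of connective tissue, was at 0.50, 0.60 and 2.81 TPM in OA libraries and at 0.30, 0.23 and 0.24 TPM in control libraries without passing (adjusted p = 0.118, limma). The remaining listed relatives are Lilr4b, Cd300lb, Cd300c2 and Cd300lg, described above. The ITIM signalling list, of 32 genes, also holds kinases and adaptors of activating receptors. Of these 32 genes 4 were listed: 3 fell and 1 missed the threshold, with a median log2 fold change of -0.27. Of these 4, the Src-family kinase genes Fyn and Lck were at 0.848 and 0.829 of the control mean. Zap70, a kinase gene of activating receptors, was at 0.830 of the control mean, and the adaptor gene Dok2 did not pass (adjusted p = 0.0537, limma). None of them is a phosphatase recruited by the ITIM, so they give no measure of ITIM signalling. Of 27 genes for activating receptors and their adaptors, 9 were listed: 7 fell, 0 rose, and 2 missed the threshold, with a median log2 fold change of -0.42; of all listed genes 40.1% fell and 36.0% rose. Lists share genes: Cd244a is counted here and among the inhibitory receptors, and Ncr1, Klre1 and Klrk1 here and among NK identity genes. Klrd1 is counted among both the inhibitory receptors and the NK identity genes. Lilr4b is counted among the inhibitory receptors and the relatives, and Apoe among the relatives and the myeloid markers. Beside Ncr1, the genes of the activating list that fell included Klrb1f, Klri2 and Klre1, at 0.671, 0.713 and 0.743 of the control mean. Whether each gene on this list acts as an activating receptor in these cells was not tested. Of 15 T cell markers 2 were listed, Cd28 and Icos, and both fell. Of 19 genes on the neutrophil, mast cell and basophil list 3 were listed. Mmp9 and Il6 rose and Mcpt8 fell, but Il6 is not restricted to those cells. None of the 17 listed heart muscle genes, such as Actc1, Ckmt2, Tnnc1 and Tcap, passed (0 of 17 had an unadjusted p under 0.05, limma).

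Promoter sequences were in the RefSeq set (GRCm38.p6) for 4 of the 5 genes, Cd96, Pvrig, Lair1 and Cd300a. The 250 bases before the transcript start used in that set are shown because 3 of these genes fell and 1 rose in the same libraries. For Lair1 and Cd300a that start is an internal one, 10363 and 889 bases inside the gene spans given above. Capitals mark matches, on either strand, to AGGAAG (a core bound by ETS factors), TGTGGT (RUNX), GTGTGA (T-box half-site), TTCNNNGAA (STAT) and AGGTCA (nuclear receptor half-site).
Cd96 (chr16:46120249-46120498, minus strand): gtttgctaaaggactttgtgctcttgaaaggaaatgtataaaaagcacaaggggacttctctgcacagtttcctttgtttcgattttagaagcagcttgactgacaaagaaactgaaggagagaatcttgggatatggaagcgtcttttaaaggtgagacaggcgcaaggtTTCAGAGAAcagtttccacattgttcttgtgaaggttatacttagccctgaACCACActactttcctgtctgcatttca
Pvrig (chr5:138341681-138341930, plus strand): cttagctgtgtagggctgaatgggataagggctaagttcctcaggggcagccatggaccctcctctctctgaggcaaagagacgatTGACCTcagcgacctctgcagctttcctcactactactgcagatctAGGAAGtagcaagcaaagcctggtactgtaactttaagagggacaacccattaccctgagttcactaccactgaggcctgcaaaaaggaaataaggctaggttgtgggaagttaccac
Lair1 (chr7:4063205-4063454, minus strand): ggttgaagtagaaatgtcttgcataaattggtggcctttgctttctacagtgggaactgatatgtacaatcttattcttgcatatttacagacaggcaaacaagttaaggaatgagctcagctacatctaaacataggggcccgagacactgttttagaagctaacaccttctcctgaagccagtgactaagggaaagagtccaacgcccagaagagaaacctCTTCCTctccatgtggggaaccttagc
Cd300a (chr11:114889791-114890040, plus strand): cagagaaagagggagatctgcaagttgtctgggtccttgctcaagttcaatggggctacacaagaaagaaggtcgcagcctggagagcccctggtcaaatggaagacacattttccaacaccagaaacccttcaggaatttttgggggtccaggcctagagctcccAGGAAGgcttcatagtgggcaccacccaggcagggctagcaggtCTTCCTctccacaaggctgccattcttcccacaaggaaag
The Cd96 promoter held 1 RUNX match and 1 STAT match. AGGAAG occurred once in Pvrig, once in Lair1 and 2 times in Cd300a, and AGGTCA once in Pvrig. Of all 32851 promoters, 29.5% held AGGAAG, 14.0% TGTGGT, 7.02% TTCNNNGAA, 14.0% AGGTCA and 12.3% GTGTGA, which had no match in the 4 promoters. No motif was held by all 3 promoters of the genes that fell, and AGGAAG was held by genes that fell and by the gene that rose.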

How the data were processed

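RNA from 6 libraries, 3 OA and 3 control, was analysed, grouped by the treatment in the labels. Per the submitters' processing notes, Bowtie2, RSEM 1.3.1 and DESeq2 1.4.5 were used, with no roles given, on mm10; neither annotation nor filters are given in the sources used here. Each row of the deposited table has, per the file headers, TPM per library and a group mean of TPM. A log2 fold change (OA over control), a P value and a Q value come from the authors' own comparison, per the file headers. It lists 559 genes, and 556 of these matched RefSeq coordinates by gene identifier. TPM keeps no read numbers, so depth and counting error are unknown; as a share, it also shifts when other transcripts change.

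Here limma 3.58.1 (R 4.3.3) was fitted to log2(TPM + 1) of all 559 genes, without filter or covariate, two-sided, with Benjamini-Hochberg adjustment at 0.05; this scale understates the change of low genes. Python 3.11.15 and matplotlib 3.10.9 made tables and plots. The 5 receptors and the 11 gene lists were chosen with earlier results of these data known. Named genes were the receptors, the 3 nearest profiles of each (some not reported here), all listed genes of the receptor and ITIM lists and, of each other list, those with the 4 smallest p-values. Alternatives were other pseudocounts, level filters, equal medians, a trended prior, a replicate block, libraries or heart muscle genes left out, and the median or mean of NK markers as the scale.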

Additional observations from a re-analysis of the deposited data

How the results depend on the processing

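Counts are given as higher and lower in OA. With pseudocounts of 0.1 or 5, minimum levels of 1 or 10 TPM, the heart muscle genes left out, or replicate 3 of both groups left out, limma called 1 and 3 of the 5 receptors, as with the settings of the report. With an intensity trend and robust fit it called 1 and 4, Lilrb4a being the addition (adjusted p = 0.0456; 0.0456 to 0.19 over its alternatives in TPM). With libraries scaled to equal medians it called 1 and 2, Cd96 being lost (adjusted p = 0.0513; 0.016 to 0.116 over its alternatives in TPM), and 162 and 82 of all listed genes, against 201 and 224 in the main result. With 1 library left out it called 0 to 0 receptors higher and 0 to 3 lower, and 0 to 177 and 0 to 187 of all listed genes; without OA replicate 2 or control replicate 1 all these counts were 0 (159 and 168, and 171 and 168, listed genes at an unadjusted p under 0.05). The summed receptor level, OA minus control, was -235 to -127 TPM with 1 library left out. Correlations between the deviations of same-numbered libraries over 559 genes were -0.11 to 0.33, against -0.40 to 0.35 for unlike numbers. The deviations of the 3 libraries of a group are tied to each other, so these correlations cannot show whether replicate numbers pair the libraries. With the replicate number as a block limma called 0 and 0 receptors (3 of 5 at an unadjusted p under 0.05) and 0 and 0 listed genes (149 and 89 unadjusted). Relative to the NK marker median, the difference turned positive for Cd96 (0.084), Pvrig (0.010) and Lilrb4a (0.22), none of which passed; relative to the NK marker mean, chosen after seeing the data, it was positive for Cd96 (0.14), Pvrig (0.067) and Lilrb4a (0.27), of which Lilrb4a passed (adjusted p = 0.0197); the cause was not tested. Without read numbers, the counting error of Pvrig and Lair1, the receptors of lowest level, is unknown.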
